A study of Mus musculus with 12 samples.

Results

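The genes described here were chosen by name, with earlier results of these data known. They encode receptors and ligands of the TNF superfamily that CD4+ T cells are known to use for costimulation. They are 10 of the 56691 genes in the count table, and comprise 6 receptors (*Tnfrsf4*, *Tnfrsf9*, *Tnfrsf18*, *Tnfrsf1b*, *Tnfrsf14* and *Cd27*) and 4 ligands (*Cd40lg*, *Tnfsf8*, *Tnfsf11* and *Tnfsf14*). All 10 passed the filter of at least 30 reads summed over the 12 samples, as did 15138 genes in all. The superfamily supplies much of the costimulation that CD4+ T cells receive after antigen recognition. Its ligands are trimeric type II membrane proteins on antigen-presenting cells and T cells, and its receptors cluster around them and recruit TRAF adaptors, which lead to NF-kB and MAP kinase signalling, survival and cytokine production. Receptors such as OX40 are low on resting T cells and are induced by T cell receptor signalling, while T cells themselves carry ligands such as CD40 ligand, through which they help B cells and dendritic cells.

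The study asked how the PD-1 and Lag3 pathways control early re-activation of CD4+ T cells. Tg4 *Nr4a3*-Tocky *Il10*-GFP mice carry a transgenic T cell receptor for myelin basic protein, so most of their CD4+ T cells share 1 specificity, together with a fluorescent Timer protein that reports transcription of *Nr4a3* and a GFP reporter of *Il10*. Every mouse, controls included, received 4 mg/kg of [4Y]-MBP peptide, 0.5 mg of antibody 24 h later and 0.4 mg/kg of peptide a further 30 min later, and spleens were taken 12 h after the second peptide. The 4 groups of 3 mice each received an isotype pool (isotype), anti-Lag3, anti-PD-L1, or anti-PD-L1 and anti-Lag3 together (CB). Responder CD4+ T cells, positive for both the blue and the red form of the Timer protein, were sorted, so the libraries describe cells that had transcribed *Nr4a3* in every group and not the whole CD4+ population. Cells of the 4 treatments carried CD4 antibodies with different dyes so that they could be sorted together, and any effect of the dye cannot be told apart from that of the treatment.

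Messenger RNA was read from its 3′ end, and between 16449370 and 22151025 reads per sample (median 19176439) were counted on genes. Levels are given as CPM, the reads of a gene in every 1000000 counted, after scaling by edgeR's TMM method. All 9 markers of CD4 T cells examined had reads in every sample, with *Cd4* between 202 and 318 CPM. The summed level of these 9 markers was 2796 to 2874 CPM in CB and 3233 to 3341 CPM in isotype. *Cd4*, *Thy1* and *Cd3e* were lower in CB at an adjusted p under 0.05 by edgeR's quasi-likelihood test, as 1.96% of all genes tested were. The rest of the list was not called. Between CB and isotype, *Cd3g*, *Cd3d* and *Lck* had log2 differences of -0.34, -0.17 and -0.16. Those of *Zap70*, *Lat* and *Cd28* were 0.19, 0.02 and 0.01. Of 11 myeloid and dendritic cell markers 2 (*Cd14* and *Xcr1*) had no read in any sample, and the myeloid sum was 15.9 to 21.7 CPM in anti-PD-L1 against 5.61 to 12.3 CPM in the other groups. The erythroid sum was 178 to 351 CPM in isotype and 119 to 161 CPM in CB. With anti-Lag3 it was 168 to 221 CPM and with anti-PD-L1 127 to 165 CPM. Of the 5 erythroid markers only *Hbb-bs* was called between CB and isotype. It was lower in CB, with a log2 difference of -0.75 (adjusted p = 0.00509 by edgeR's quasi-likelihood test). The sum of 6 CD8 T and NK cell markers was 43.5 to 48.0 CPM in isotype, 33.96 to 49.1 CPM in anti-Lag3, 27.2 to 36.9 CPM in anti-PD-L1 and 34.5 to 38.4 CPM in CB, most of it *Cd8b1*. The part of these shifts in the results below was not tested.

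Of the 6 receptor genes, 5 lie on chromosome 4 of GRCm38, with *Tnfrsf4* (chr4:156013843-156016612, plus strand) and *Tnfrsf18* (chr4:156026164-156028895, plus strand) separated by 9551 bases. The upstream sequences of *Tnfrsf4*, *Tnfrsf9*, *Tnfrsf18* and *Tnfrsf1b* are given here to show what they share and where they differ. They are the parts of the 250 bases before each RefSeq start (GRCm38.p6) that no annotated transcript places in an untranslated region. Added to them is 1 stretch of 30 bases around the NF-kB matches, which lies wholly in such a region. Capitals mark matches, on either strand, to the NFAT core GGAAA and to the NF-kB motif. NFAT and NF-kB are transcription factors activated downstream of the T cell receptor, and NF-kB also downstream of TNF receptors. The first line is the stretch between the end of the upstream gene *Sdf4* and the RefSeq start of *Tnfrsf4*, which lies upstream of the start that GENCODE gives, the next 3 lines belong to 2 annotated starts of *Tnfrsf9*, and *Tnfrsf18* and *Tnfrsf1b* follow.
Tnfrsf4, chr4:156013611-156013694, plus strand: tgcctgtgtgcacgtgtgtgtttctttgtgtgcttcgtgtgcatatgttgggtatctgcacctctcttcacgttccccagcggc
Tnfrsf9, start 1, chr4:150919905-150920154, plus strand: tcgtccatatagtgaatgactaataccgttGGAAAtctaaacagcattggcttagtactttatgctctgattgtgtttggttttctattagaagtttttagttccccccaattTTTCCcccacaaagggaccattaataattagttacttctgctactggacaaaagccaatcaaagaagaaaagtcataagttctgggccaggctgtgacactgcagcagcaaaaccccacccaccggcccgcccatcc
Tnfrsf9, start 2, chr4:150927749-150927917, plus strand: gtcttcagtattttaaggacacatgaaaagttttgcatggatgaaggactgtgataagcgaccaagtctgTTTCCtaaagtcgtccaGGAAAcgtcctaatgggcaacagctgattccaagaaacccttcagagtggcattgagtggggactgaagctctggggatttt
Tnfrsf9, start 2, 30 bases around the NF-kB matches, chr4:150927947-150927976, plus strand: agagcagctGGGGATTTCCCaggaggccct
Tnfrsf18, chr4:156026072-156026163, plus strand: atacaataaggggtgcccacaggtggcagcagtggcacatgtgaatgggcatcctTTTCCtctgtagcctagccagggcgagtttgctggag
Tnfrsf1b, chr4:145246871-145247120, minus strand: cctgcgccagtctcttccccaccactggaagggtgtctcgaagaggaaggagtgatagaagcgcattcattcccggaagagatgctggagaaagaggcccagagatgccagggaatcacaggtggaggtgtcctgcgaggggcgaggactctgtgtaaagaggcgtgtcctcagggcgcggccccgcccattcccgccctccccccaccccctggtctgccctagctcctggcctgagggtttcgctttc

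The 250 bases upstream of the second annotated *Tnfrsf9* start held 3 NFAT core matches, 2 overlapping NF-kB matches between positions -43 and -33, and 1 match to the AP-1 motif TGANTCA between -15 and -9, counted from -1 at the last base before the start. An NFAT core match at -38 to -34 lies inside the NF-kB matches and is counted with both motifs. The first *Tnfrsf9* start held 2 NFAT core matches. *Tnfrsf18* held 2, of which the one at -61 to -57 is not printed, and *Tnfrsf4* held 1, at -220 to -216 inside the *Sdf4* transcript and likewise not printed. No match to these motifs was found in the window of *Tnfrsf1b*. Of the 10 windows available for 9 of the 10 genes, every one except that of *Tnfrsf1b* held the NFAT core, as did 55.6% of 32851 promoter windows of the same length in the genome. The NF-kB motif was present in 7.25% of those windows and AP-1 in 6.75%, and among the genes described here NF-kB matched only at *Tnfrsf9* and AP-1 only at *Tnfrsf9* and *Tnfsf14*. These matches describe letters and are not measured binding sites.

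Between CB and isotype, 2 of the 10 genes were called, both receptors and both higher in CB, against 4.29% of all 15138 genes tested in either direction and 2.33% higher. They were *Tnfrsf4*, which encodes OX40, and *Tnfrsf9*, which encodes 4-1BB, both costimulatory receptors induced on activated T cells. Each rose by about the same amount, 1.93-fold and 1.90-fold. The paper had already named both among the genes changed in these libraries, and the 10 genes were chosen with earlier results known. The shares over all genes are thus given for scale and are no test of enrichment. None of the 4 ligand genes was called. A call here is an adjusted p under 0.05 from edgeR's quasi-likelihood test after Benjamini-Hochberg adjustment over all 15138 genes. In sorted bulk RNA such as this, fewer cells that carry a transcript and less of it per cell cannot be told apart.

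*Tnfrsf4* was 56.1, 68.6 and 79.1 CPM in the isotype mice, 101, 81.6 and 103 CPM with anti-Lag3, 106, 75.3 and 93.7 CPM with anti-PD-L1, and 125, 129 and 138 CPM with CB. All 3 CB samples lay above all 9 other samples, a pattern found in 2.35% of the genes tested, while the anti-PD-L1 samples overlapped isotype. The group means were 67.9 ± 11.5 CPM in isotype and 131.0 ± 6.71 CPM in CB (SD, n = 3). The log2 fold change between them was 0.95 (SE 0.15, 95% interval 0.64 to 1.25), with an adjusted p of 0.000265 by edgeR's quasi-likelihood test. Leaving out each sample in turn gave 0.82 to 1.07, and the gene was called in every one of these fits. On the authors' rlog scale, which is log2 with shrinkage, the difference was 0.62 by limma and was also called.

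*Tnfrsf9* was 33.9, 34.6 and 32.5 CPM in isotype, 38.3, 42.8 and 36.6 CPM with anti-Lag3, 35.7, 50.0 and 58.7 CPM with anti-PD-L1, and 60.7, 66.3 and 64.5 CPM with CB. The isotype samples lay close together and below every treated sample, and the CB samples again lay above all 9 others. With 33.7 ± 1.06 CPM in isotype and 63.8 ± 2.87 CPM in CB (SD, n = 3), the log2 fold change was 0.92 (SE 0.18, 95% interval 0.55 to 1.30) and the adjusted p by edgeR's quasi-likelihood test was 0.00269. Without each sample in turn the value stayed between 0.89 and 0.96 and was called each time. It was 0.46 on the rlog scale, also called. The 3′ end of *Tnfrsf9* (chr4:150914562-150946102, plus strand) lies inside *Camta1* on the opposite strand, for which 2140 reads were counted over the 12 samples against 10882 for *Tnfrsf9*. The strand setting of the counting is not given in the sources used here, so reads of the overlapping pair cannot be told apart.

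*Tnfrsf18* encodes GITR, a receptor shared by regulatory and activated T cells, and its gene lies within the antisense gene *Gm16008*, which had 0 reads. Its levels were 54.1, 86.9 and 93.8 CPM in isotype, 102, 93.0 and 108 CPM with anti-Lag3, 70.2, 115 and 98.1 CPM with anti-PD-L1, and 107, 101 and 127 CPM with CB. Every CB sample lay above every isotype sample, although the lowest isotype sample stood well below the other two and the single-antibody groups overlapped both. *Tnfrsf4*, *Tnfrsf9* and *Tnfrsf18* were thus the 3 of 10 genes without overlap in this direction, a pattern that 10.4% of all genes tested showed. The log2 fold change of *Tnfrsf18* was 0.51 (SE 0.18, 95% interval 0.15 to 0.87) with an adjusted p of 0.116 by edgeR's quasi-likelihood test, so it was not called. It was called when genes with low counts were not filtered out (adjusted p = 0.0163) and with the replicate number as a block (adjusted p = 0.0209), both in edgeR. No other alternative fit called it. Leaving out each sample in turn gave 0.30 to 0.66, without a call.

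**Figure D1:**
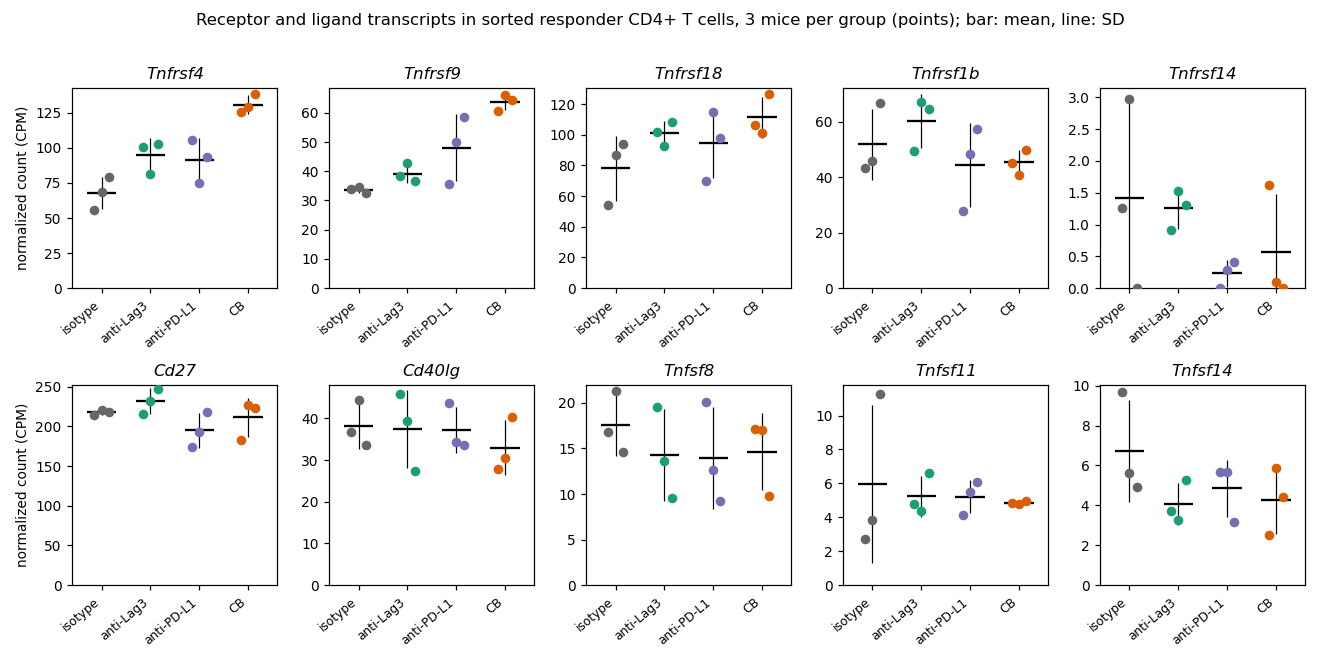
Normalized counts (CPM, linear axis from 0) of the 10 receptor and ligand genes in each of 12 mice, with 4 treatments on the horizontal axis, 1 point per mouse, a bar at the mean of 3 and a line for the SD. For *Tnfrsf4* and *Tnfrsf9* the 3 CB points lie above all other points, whereas for the ligand genes the groups overlap.

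The remaining receptors did not share this order. *Tnfrsf1b* (chr4:145213463-145246870, minus strand) encodes TNFR2, the TNF receptor with costimulatory function on T cells. It was 43.2, 45.9 and 66.6 CPM in isotype and 45.2, 40.9 and 49.8 CPM in CB, with 49.2, 67.0 and 64.6 CPM in anti-Lag3 and 27.8, 48.3 and 57.2 CPM in anti-PD-L1. All neighbouring groups overlapped, and the log2 difference between CB and isotype was -0.20 (95% interval -0.64 to 0.25, adjusted p = 0.775 by edgeR's quasi-likelihood test).

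*Cd27* (chr6:125232622-125237010, minus strand), a receptor present on naive T cells as well as activated ones, was 215, 221 and 218 CPM in isotype and 183, 227 and 224 CPM in CB. With anti-Lag3 it was 215, 233 and 248 CPM and with anti-PD-L1 174, 193 and 218 CPM. The CB samples lay on both sides of isotype, and the log2 difference was -0.04 with a 95% interval of -0.27 to 0.19, the narrowest of the 10 genes in that comparison. A change of the size seen for *Tnfrsf4* lies outside this interval. *Cd27* lies inside *Vamp1* on the opposite strand, which had 2407 reads against 49836 for *Cd27*.

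*Tnfrsf14* (chr4:154921933-154928563, minus strand) encodes HVEM, which binds the ligand LIGHT and the inhibitory receptors BTLA and CD160. It had 193 reads over all 12 samples, with none in isotype 3, anti-PD-L1 1 and CB 3, and its highest value was 2.98 CPM in isotype 2. The 95% interval for CB against isotype ran from -5.37 to 2.79 on the log2 scale, which includes both a large fall and a large rise. Its partners were measured better. *Btla* was 52.9 ± 6.53 CPM in isotype and 55.2 ± 5.48 CPM in CB (SD, n = 3), a log2 difference of 0.06 (95% interval -0.28 to 0.40). *Cd160* was 3.85 ± 1.14 CPM and 5.19 ± 0.23 CPM in these groups, with a log2 difference of 0.43 (95% interval -0.68 to 1.54).

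Among the ligands, *Cd40lg* (chrX:57212143-57224042, plus strand) encodes CD40 ligand, the signal by which helper T cells activate B cells and dendritic cells. It was 36.8, 44.3 and 33.5 CPM in isotype, 45.8, 39.4 and 27.3 CPM with anti-Lag3, 43.6, 34.4 and 33.6 CPM with anti-PD-L1, and 27.9, 30.5 and 40.4 CPM with CB. The groups overlapped throughout. The log2 difference between CB and isotype was -0.21 (95% interval -0.66 to 0.23, adjusted p = 0.742 by edgeR's quasi-likelihood test). The interval reaches neither the rise of *Tnfrsf4* nor that of *Tnfrsf9*.

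*Tnfsf8* (chr4:63831308-63861347, minus strand), which encodes CD30 ligand, was 16.9, 21.3 and 14.6 CPM in isotype and 17.2, 17.0 and 9.73 CPM in CB, and all its groups overlapped. The log2 difference was -0.27 (95% interval -0.97 to 0.44). *Tnfsf11* (chr14:78277445-78308043, minus strand) encodes RANKL, a ligand of dendritic cells and osteoclast precursors, and was 2.72, 3.86 and 11.3 CPM in isotype against 4.82, 4.81 and 4.98 CPM in CB. One isotype sample, replicate 3, stood above the 11 others, and the log2 difference of -0.29 (95% interval -1.49 to 0.91) became 0.56 without it. *Tnfsf14* (chr17:57189492-57194177, minus strand), which encodes LIGHT, was 9.66, 5.64 and 4.93 CPM in isotype and 2.52, 5.87 and 4.43 CPM in CB. Its log2 difference was -0.66 (95% interval -1.88 to 0.56), and the groups again overlapped.

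By role, the 4 ligands had log2 differences below 0 between CB and isotype (median -0.28), none of them called, and the 6 receptors had a median of 0.23, with 3 above and 3 below 0. The median over all 15138 genes tested was 0.0.

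Each single antibody was also compared with isotype. No member was called in either comparison with isotype by edgeR's quasi-likelihood test or by DESeq2's Wald test. The share of all genes called by edgeR was 0.033% for anti-PD-L1 and 0.0% for anti-Lag3. At an unadjusted p under 0.05, 2 members passed with anti-PD-L1 (*Tnfrsf4* and *Tnfrsf9*), against 7.84% of all genes, and 2 with anti-Lag3 (*Tnfrsf4* and *Tnfrsf18*), against 5.21%. Without overlap and higher than isotype were *Tnfrsf9* with anti-PD-L1 (5.34% of genes tested) and *Tnfrsf4* and *Tnfrsf9* with anti-Lag3 (5.25%). These 2 comparisons and that of CB share the isotype samples.

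For *Tnfrsf4* the log2 difference from isotype was 0.43 with anti-PD-L1 (SE 0.15, 95% interval 0.12 to 0.74) and 0.49 with anti-Lag3 (SE 0.15, 95% interval 0.18 to 0.79). Its group means rose from isotype through anti-PD-L1 and anti-Lag3 to CB, and of the neighbours in that order only the last pair did not overlap. For *Tnfrsf9* the corresponding values were 0.52 with anti-PD-L1 (SE 0.18, 95% interval 0.14 to 0.89) and 0.22 with anti-Lag3 (SE 0.18, 95% interval -0.16 to 0.60). Here anti-Lag3 came before anti-PD-L1 in the order, and these middle groups overlapped while the outer pairs did not. The lowest anti-PD-L1 sample for *Tnfrsf9*, replicate 1, was close to the isotype samples, and the other two lay well above them. For *Tnfrsf18* the differences were 0.27 with anti-PD-L1 (SE 0.18, 95% interval -0.09 to 0.64) and 0.37 with anti-Lag3 (SE 0.18, 95% interval 0.01 to 0.73).

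The direct comparison of the antibodies did not separate these receptors. Between anti-PD-L1 and anti-Lag3 no member was called, as no gene of the 15138 was (0.0%), and 1 member, *Cd27*, had an unadjusted p under 0.05, against 4.69% of all genes. The difference of anti-PD-L1 minus anti-Lag3 was -0.05 for *Tnfrsf4* (95% interval -0.36 to 0.25) and 0.30 for *Tnfrsf9* (95% interval -0.08 to 0.67) on the log2 scale. The 2 anti-Lag3 and anti-PD-L1 groups therefore cannot be ranked for either gene.

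CB was then compared with each single antibody. All 3 CB samples exceeded all samples of either single-antibody group for *Tnfrsf4* and for *Tnfrsf9*, a pattern of 6.94% of genes tested for anti-PD-L1 and of 7.68% for anti-Lag3. Over anti-PD-L1 the log2 difference was 0.52 for *Tnfrsf4* (SE 0.15, adjusted p = 0.161 by edgeR's quasi-likelihood test) and 0.41 for *Tnfrsf9* (SE 0.18, adjusted p = 0.496 by the same test). Over anti-Lag3 it was 0.46 for *Tnfrsf4* (SE 0.15, adjusted p = 0.201 by edgeR's quasi-likelihood test) and 0.70 for *Tnfrsf9* (SE 0.18, adjusted p = 0.0738 by the same test). No member was thus called in either comparison, against 0.37% of all genes over anti-PD-L1 and 0.694% over anti-Lag3. At an unadjusted p under 0.05 the 2 genes passed in both comparisons, where 9.08% and 9.46% of all genes did. The call for *Tnfrsf9* over anti-Lag3 depended on the fit: DESeq2's Wald test called it (adjusted p = 0.0146), as did limma on the rlog values (adjusted p = 0.0349) and edgeR without the filter (adjusted p = 0.0255), and so did the edgeR fit that left out anti-PD-L1 replicate 1 (adjusted p = 0.0359). *Tnfrsf18* differed by 0.24 from anti-PD-L1 and by 0.14 from anti-Lag3 on the log2 scale, with intervals that include 0.

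Whether the pair of antibodies gave more than the sum of each was tested on the log2 scale, where a sum is a product of fold changes. Additivity of CPM values was not tested. The interaction was CB minus both single antibodies plus isotype on the log2 scale. It was 0.03 for *Tnfrsf4* (SE 0.21, 95% interval -0.40 to 0.46), 0.19 for *Tnfrsf9* (SE 0.26, 95% interval -0.34 to 0.71) and -0.13 for *Tnfrsf18* (SE 0.25, 95% interval -0.65 to 0.38). No member was called (0.0% of all genes), none of the 10 had an unadjusted p under 0.05 by edgeR, where 5.93% of all genes did, and DESeq2's Wald test called none of the 10. For *Tnfrsf4* the 2 single-antibody log2 differences add up to nearly the whole of the CB log2 difference. The interval of *Tnfrsf4* still leaves room for a departure of -0.40 to 0.46. That is about the size of the log2 differences with anti-PD-L1 (0.43) and anti-Lag3 (0.49).

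**Figure D2:**
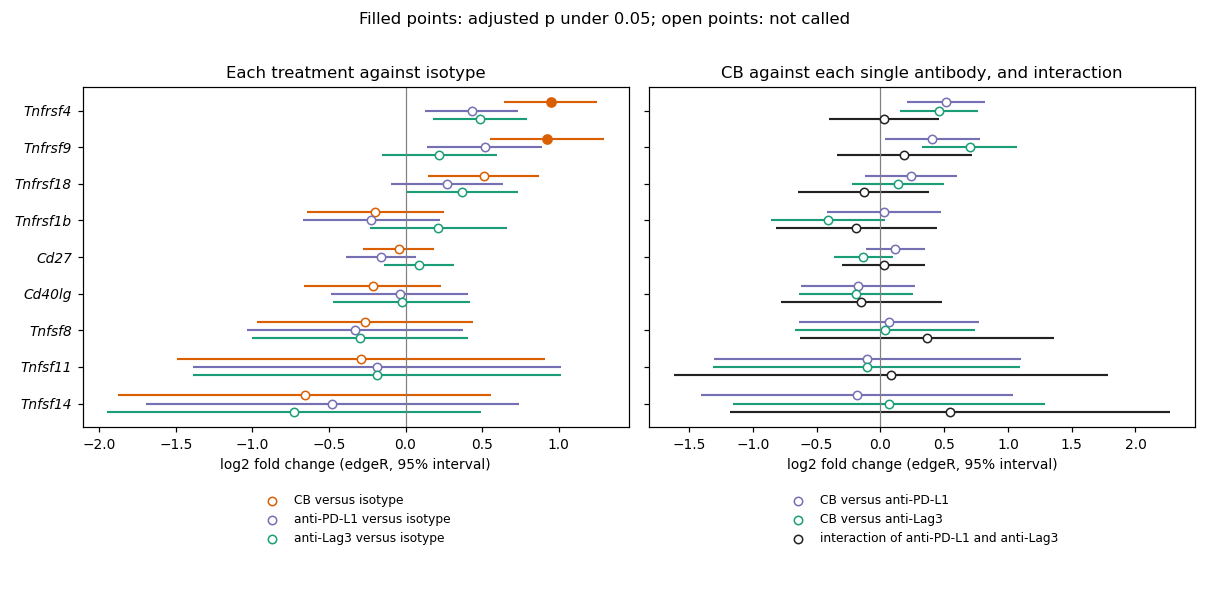
Log2 fold changes with 95% intervals of 9 genes (*Tnfrsf14*, whose intervals are several times wider, is left out), for each treatment against isotype on the left and for CB against each antibody and the interaction on the right. Filled points, *Tnfrsf4* and *Tnfrsf9* between CB and isotype, are the only calls, and the intervals of both genes for CB against the single antibodies also lie above 0.

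The levels of these receptors are high on regulatory T cells, so markers of that lineage were set beside them. All 7 markers had reads, and their summed level was 117 to 139 CPM in isotype, 123 to 162 CPM with anti-Lag3, 105 to 128 CPM with anti-PD-L1 and 125 to 137 CPM with CB, with CB inside the range of isotype. Most of this sum came from *Ikzf2*, with means of 77.8 CPM in isotype and 89.9 CPM in CB, and *Nrp1*, with 38.8 and 29.7 CPM, whose differences have opposite signs. *Foxp3*, the defining factor, had 609 reads in all and means of 4.28 CPM in isotype and 1.62 CPM in CB, while *Ikzf4* had 2.02 and 5.39 CPM and *Lrrc32* 1.15 and 1.81 CPM. *Gpr83* had 3.96 and 2.54 CPM, and *Itgae*, with 93 reads in all, had 0.406 and 0.0 CPM. The log2 difference between CB and isotype was 0.21 for *Ikzf2* (95% interval -0.13 to 0.55) and -0.38 for *Nrp1* (95% interval -0.83 to 0.06). For *Foxp3* it was -1.40 (95% interval -3.22 to 0.41). None of the 7 was called between CB and isotype. The part of regulatory T cells in the results above was not tested.

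The ligands of GITR, OX40, 4-1BB and CD27 had few or no reads in the sorted cells. *Tnfsf18*, the ligand of GITR, had no read in any of the 12 samples, for which 3 reads would be 0.0129 CPM. *Tnfsf4*, the OX40 ligand, had 38 reads in all with 8 samples at 0, *Tnfsf9*, the 4-1BB ligand, had 25 reads, and *Cd70*, the ligand of CD27, had 1. These ligands are chiefly known from antigen-presenting cells. *Tnf* and *Lta*, whose products bind TNFR2, had reads in every sample, with log2 differences between CB and isotype of -0.29 (95% interval -1.35 to 0.76) and 0.28 (95% interval -0.71 to 1.27). Of the receptors for the T cell ligands, *Cd40* had 167 reads, *Tnfrsf8*, which encodes CD30, 289, *Tnfrsf11a*, which encodes RANK, 27 in a single sample, *Tnfrsf11b*, the RANKL decoy, 4 and *Ltbr* 1. The limit given for a count of 0 covers counting error only, since reads copied by PCR are not independent molecules.

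The wider family was read in the same fit, where 4.29% of all genes tested were called between CB and isotype and 1.96% were called lower. Of 14 other ligand genes 7 could be tested and none was called. Of 22 other receptor genes 15 could be tested and 1 was called, lower in CB: *Tnfrsf13b*, which encodes TACI, a receptor for BAFF and APRIL chiefly known from B cells. It was 44.0, 46.8 and 30.8 CPM in isotype, 31.1, 29.7 and 32.7 CPM with anti-Lag3, 21.8, 22.3 and 29.0 CPM with anti-PD-L1, and 14.0, 21.5 and 17.1 CPM with CB. The CB samples lay below all others, as in 1.79% of the genes tested, and the log2 fold change from isotype was -1.21 (SE 0.23, adjusted p = 0.00223 by edgeR's quasi-likelihood test). All 7 B cell markers examined had reads, with a summed level of 362 to 421 CPM in isotype and 326 to 399 CPM in CB. *Ighm* alone gave 323 to 412 CPM of it per sample. The part of B cells in this result was not tested.

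Of 20 genes for TRAF adaptors and signalling close to the receptors, all could be tested. Between CB and isotype, 1 was called higher and 2 lower (2.33% and 1.96% of all genes tested were), with a list median of -0.18 on the log2 scale against 0.0 over all genes. *Traf2*, the adaptor that OX40, 4-1BB and TNFR2 recruit, was 11.4, 12.5 and 14.6 CPM in isotype and 28.9, 25.3 and 26.4 CPM in CB, with the single-antibody samples between 16.7 and 28.8 CPM. Isotype was below every treated sample, and the log2 fold change of CB was 1.07 (SE 0.25, adjusted p = 0.0116 by edgeR's quasi-likelihood test). The call was lost without isotype replicate 1 (adjusted p = 0.0646) and without CB replicate 1 (adjusted p = 0.0577).

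*Tnfaip3*, which encodes the NF-kB inhibitor A20, was 68.6, 66.3 and 85.5 CPM in isotype and 35.5, 55.5 and 37.8 CPM in CB. It was 61.3, 49.25 and 60.9 CPM with anti-Lag3 and 30.0, 39.9 and 59.9 CPM with anti-PD-L1, and both groups overlapped CB. The log2 fold change of CB from isotype was -0.78 (SE 0.21, adjusted p = 0.0311 by edgeR's quasi-likelihood test). This call was lost without isotype replicate 1 or 3 and without CB replicate 1 or 3, where edgeR's adjusted p was 0.0584 to 0.167. *Traf3ip3*, a TRAF3-binding protein expressed in lymphocytes, was 105, 121 and 117 CPM in isotype and 78.9, 76.2 and 70.5 CPM in CB. The CB samples were again below all others. Its log2 fold change was -0.60 from isotype (SE 0.12, adjusted p = 0.00345 by edgeR's quasi-likelihood test) and -0.54 from anti-Lag3 (SE 0.12, adjusted p = 0.0321 by the same test). No other gene of these 3 lists was called in any of the 7 comparisons.

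**Figure D3:**
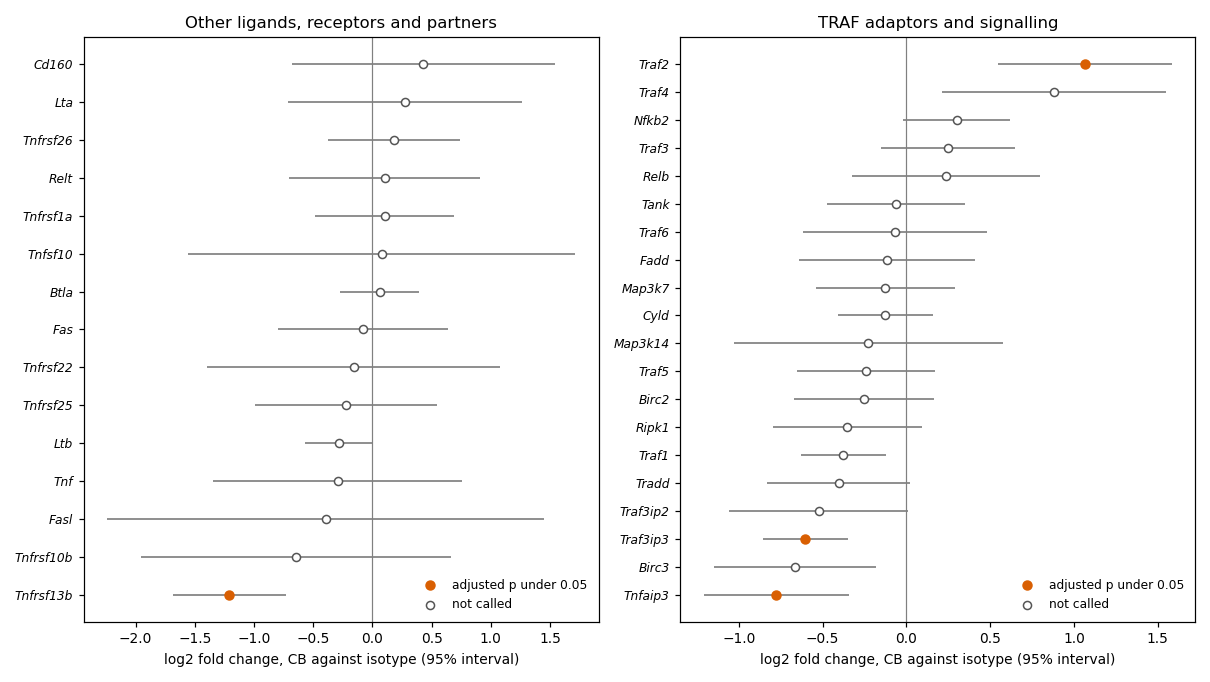
Log2 fold changes of CB against isotype with 95% intervals for 15 of the 24 tested genes among other ligands, other receptors and HVEM partners (left, standard error under 1) and for 20 TRAF adaptor and signalling genes (right), sorted by value. The 4 filled points are the genes called: *Tnfrsf13b*, *Traf3ip3* and *Tnfaip3* to the left of 0 and *Traf2* to the right.

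*Tnfrsf4* and *Tnfrsf18* are close neighbours, and the genes around them were therefore examined. *Sdf4* (chr4:155992872-156013610, plus strand), which ends 84 bases before the RefSeq start of *Tnfrsf4*, also rose: it was 131, 111 and 137 CPM in isotype and 205, 184 and 191 CPM in CB. Its log2 fold change was 0.61 (SE 0.12, adjusted p = 0.00317 by edgeR's quasi-likelihood test), with all CB samples above isotype. *B3galt6*, on the other side of *Sdf4*, was 6.34, 8.36 and 9.53 CPM in isotype and 15.5, 19.8 and 12.6 CPM in CB, a difference of 0.98 (SE 0.38) that was not called (adjusted p = 0.181 by edgeR's quasi-likelihood test). None of the other neighbours tested, up to 3 on each side of the pair and 1 between them, was called.

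To describe which transcripts followed the called receptors most closely, 10447 genes were ranked by the Pearson correlation of their log2 CPM with each receptor over the 12 samples. For *Tnfrsf4* the highest were *Ssb* (r = 0.97), *Esf1* (r = 0.96) and *Rrp1b* (r = 0.96). For *Tnfrsf9* they were *Rrbp1* (r = 0.94), *Dnajc2* (r = 0.91) and *Ranbp3* (r = 0.91). All 12 points share the 4 treatments and the library scaling, so these values describe a common pattern over the groups.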

How the data were processed

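Sorted responder CD4+ T cells of 12 mice were sequenced from the 3′ end of mRNA. Per the labels and the methods, the authors trimmed reads with cutadapt 1.18, mapped them with STAR 2.6.1a to GRCm38 and deposited featureCounts 1.6.4 counts per gene, without normalization or molecular identifiers. The authors also deposited rlog values, a shrunken log2 scale from DESeq2 in R 4.0, for 9 of the 10 genes. Spike-ins (114 rows, 0.719% to 1.29% of counts) were left out. With edgeR 4.0.16 in R 4.3.3, TMM scaling and 1 fit of 4 group means to all 12 samples were applied to the genes with at least 30 reads in sum, and each of 7 comparisons was tested by quasi-likelihood with p adjusted over 15138 genes by Benjamini-Hochberg. The CPM values are the deposited counts relative to the scaled library size. Alternatives used limma 3.58.1 on rlog values, DESeq2 1.42.0, other filters, size factors and samples, and a log2 threshold of 0.2. The fits were tested on simulated data. Symbols and coordinates came from GENCODE for GRCm38, which matched 52073 of 56691 identifiers, and promoters from RefSeq. The genes named are the 10 members, their binding partners, list genes called in any comparison, the neighbours of *Tnfrsf4* and *Tnfrsf18*, and the 3 genes most correlated with each called member among genes averaging 30 reads or more. The members, lists and this rule were chosen with earlier results of these data known. Mice are biological replicates. Figures were drawn with matplotlib 3.10.9 in Python 3.11.15.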

Additional observations from a re-analysis of the deposited data

How the results depend on the processing

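*Tnfrsf4* and *Tnfrsf9* were called higher in CB than in isotype under all 21 alternatives, with adjusted p of 4.31e-08 to 0.00421 and 0.000139 to 0.0232. Over anti-PD-L1, 1 member (*Tnfrsf4*, adjusted p = 0.0487 in edgeR) was called without the filter on low counts. Over anti-Lag3, 1 member (*Tnfrsf9*) was called with DESeq2's Wald test, without the filter, with only the groups compared, with the replicate block and on rlog values, and 0 to 1 when samples were left out in turn.

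Of 70 log2 differences of members, 29 changed sign under some alternative and none of these was ever called. Of those given above, leaving out samples in turn moved *Tnfrsf1b* from -0.32 to 0.020, *Cd27* from -0.099 to 0.049 and *Tnfsf11* from -0.64 to 0.56 between CB and isotype. It moved *Tnfrsf4* from -0.17 to 0.069 and *Tnfrsf18* from -0.26 to 0.075 between the single antibodies, and their interactions from -0.092 to 0.15 and from -0.30 to 0.079. *Sdf4* and *Traf2* were not called by DESeq2's Wald test against 0.2 (adjusted p = 0.0725 and 0.0556), nor was *Tnfaip3* (adjusted p = 0.324) or in edgeR's test against 0.2 (adjusted p = 0.0814).

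Over all genes, 649 were called between CB and isotype, with 233 to 871 across the alternatives and 394 to 705 with samples left out. The counts were 56 (3 to 157, and 4 to 57) over anti-PD-L1, 105 (39 to 284, and 42 to 125) over anti-Lag3, 5 (2 to 56, and 0 to 10) for anti-PD-L1 against isotype, and 0 in the other 3 comparisons, with at most 14.

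With the replicate number as a block, 3 members were called between CB and isotype, *Tnfrsf18* being the third (0.54). Over all genes, that block gave 843 calls between CB and isotype, against 649 without it. The methods state sorting in batches of 4, and the paper attributes part of the variation between samples largely to batch effects of sorting. The labels do not tie the numbers to a batch, so the main fit took no pairing. Whether the numbers mark the sort cannot be told from the correlations. Deviations from group means of same-numbered samples correlated by -0.04 to 0.21, over 0.1 in 6 of 18 pairs, against -0.17 to 0.14 in other pairs. The pairs of replicate 1 lay between 0.099 and 0.21, and 7 of 12 samples correlated best with their own number. *Tnfrsf14*, *Tnfsf11* and *Tnfsf14* have the fewest reads of the 10 genes (193, 1238 and 1148) and the widest intervals. The part of depth and of the spread between mice in these intervals was not tested.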
